A study of Mus musculus with 9 samples.

Results

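The comparison described here is that of streptozotocin (STZ) diabetes with citrate buffer in control mice, and it was chosen by the group labels alone: con/STZ 1 and con/STZ 2 were set against con 1, con 2 and con 3, which are 5 of the 9 mouse kidney cortex libraries of the series. All 5 came from mice described as male, though con/STZ 2 held Xist RNA, as given below. They carried the floxed Vhl gene on both alleles but no Cre. The con mice were therefore also floxed, and their labels give the genotype as WT. The mice were litter mates on a mixed C57BL/6 and FVB background, received STZ at 100 mg/kg intraperitoneally on 2 consecutive days or buffer at an age of 12 weeks, and were killed 10 weeks later. The other 4 libraries came from VHLΔPT mice, in which Cre driven by the Sglt2 promoter deleted Vhl in the early proximal tubule, with STZ (VHLΔPT/STZ 1 and 2) and without (VHLΔPT 1 and 2). They entered the fit, where they shared the estimate of the spread. RNA from the cortices of 2 mice was pooled for each library, so each adjusted p measures the spread between pools of mice.

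STZ enters the insulin-producing beta cells of the pancreas and kills them, and the lack of insulin raises blood glucose. In the kidney the filtered glucose is taken back by the proximal tubule, which makes up most of the cortex, through the sodium-glucose cotransporters SGLT2 and SGLT1. The diabetic kidney is known for growth of the tubule, for hyperfiltration and, later, for thickening of the glomerular basement membrane. STZ can also lower testosterone in male rodents, and the mouse proximal tubule is among the most sex-dependent tissues in its gene expression.

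The table gives a normalized count for 18657 genes. Tests were run on the log2(normalized count + 1) scale for 14437 genes, those whose average across the 9 libraries reached 10. This scale understates the change of low genes. The highest value was the same, 789999, in all 5 libraries and the totals lay between 21951722 and 21952234 in all 9 libraries, as quantile normalization gives, so that the sequencing depth of each library is unknown and a fold change is relative to the other genes. Markers of every cortical segment were present, led by the proximal phosphate transporter Slc34a1 at 110088 to 154892. The adrenal marker Cyp11a1 was at 0 to 2. Xist, which is made from the inactive X chromosome of female cells, was at 3205 in con/STZ 2 and at 0 to 6.22 in the other con and con/STZ libraries, against the male label of the group. The 4 Y-linked genes summed to 1968 to 2347 in con, to 3262 in con/STZ 1 and to 1501 in con/STZ 2. Counts and calls are therefore also given without con/STZ 2. Fat markers differed among the con libraries. Adipoq was at 22.2, 811 and 408 in con 1, con 2 and con 3, and at 67.7 and 129.6 in con/STZ.

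Of the 14437 genes, 4082 (28.3%) passed an adjusted p of 0.05, of which 2040 (14.1%) were higher and 2042 (14.1%) lower in con/STZ. The median log2 change of all genes was -0.02. A change of more than 1.5-fold as well was found for 1269 genes (8.79%) that rose and 992 genes (6.87%) that fell. The con and con/STZ libraries did not overlap for 8380 genes (58% of those tested), so a lack of overlap, given below for single genes, was common. The log2 values of con/STZ 1 and con/STZ 2 differed with an SD of 0.41, less than those of any pair of con libraries (0.47 to 0.56) and less than those of a con and a con/STZ library (0.72 to 0.75). With con/STZ 2 left out, 1293 genes passed, of which 1259 were among the 4082, and with con/STZ 1 left out 1241 passed, of which 1208 were among them. The direction was kept by all 4078 and all 4080 of the genes that could be tested without con/STZ 2 and without con/STZ 1. Since these genes were chosen for passing with both libraries, a kept direction was largely fixed beforehand and is no independent support. In the text, "rose" and "fell" are used of genes that passed, "without either con/STZ library" means with each of them left out in turn, and values after ± are standard errors (SE) of the log2 change.

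The direction of change went with the length of the transcript. The correlation, across genes, of a library's deviation from the gene mean with log10 length was -0.19 to -0.46 in the 3 con libraries and 0.26 and 0.27 in con/STZ, but also 0.21 and 0.19 in the VHLΔPT libraries without STZ, so on this measure the con libraries stood apart. It was 0.18 and -0.06 in VHLΔPT/STZ. Of 5 classes of equal size by merged exon length, the class of the shortest genes had a median of 1608 bases. In it 71 genes rose and 799 fell, and the median log2 change was -0.35. In the class of the longest genes (median 9740.5 bases), 1058 rose and 93 fell, and the median was 0.34. A fit with the length trend of each library removed is given beside the gene groups as "length corrected". It left 2776 genes past the threshold, 1247 higher and 1529 lower, and 2142 of the 4082 genes still passed.

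**Figure D1:**
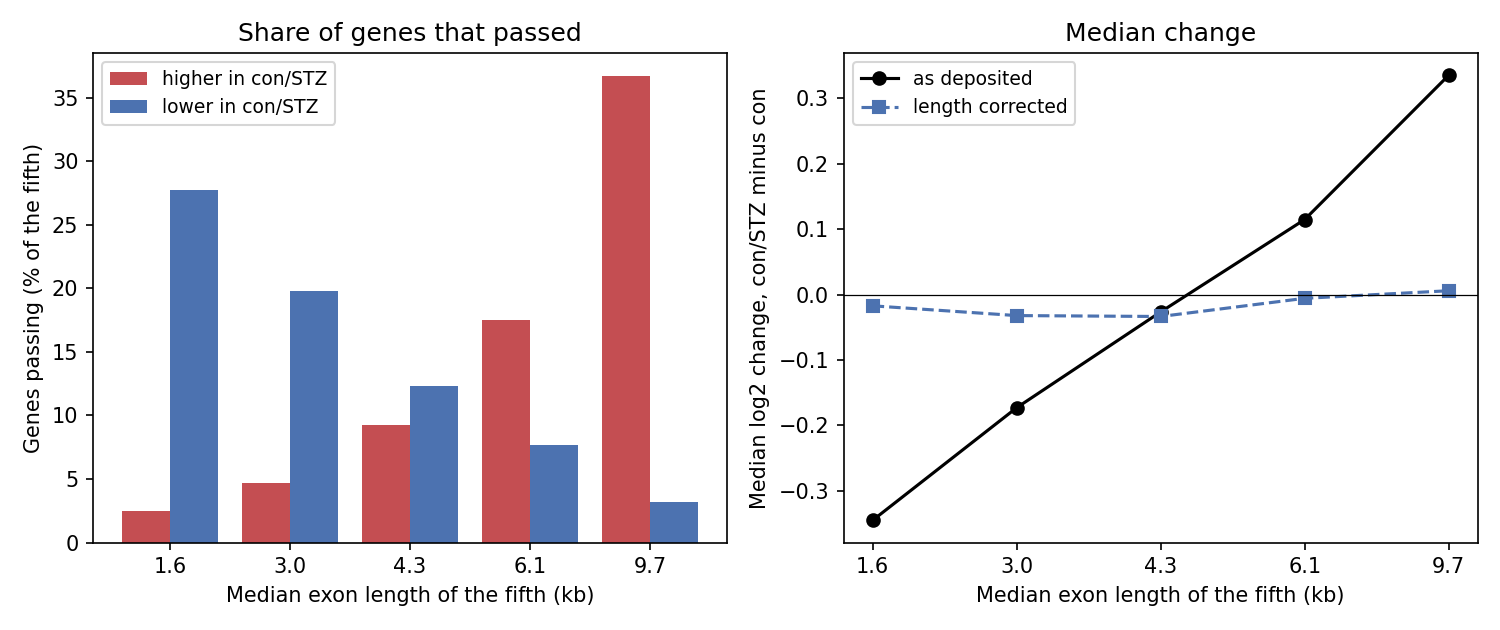
Genes in 5 classes of merged exon length, with the percent that rose and that fell in con/STZ (bars, left) and the median log2 change as deposited and length corrected (points, right). The percent that rose climbed from 2.46 in the shortest class to 36.7 in the longest, and the percent that fell dropped from 27.7 to 3.22.

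The 3 genes of largest rise encode enzymes and an amino acid transporter. Ugt1a2, a UDP-glucuronosyltransferase (chromosome 1, 88200601 to 88218997, GRCm38), measured 10.7, 15.7 and 67.7 normalized counts in the con libraries against 10202 and 9274 in con/STZ, a log2 change of 8.68 ± 1.25 (adjusted p = 0.00322). Both con/STZ libraries were far above every con library. The VHLΔPT/STZ libraries differed from each other, at 437 in VHLΔPT/STZ 1 and 5849 in VHLΔPT/STZ 2. The members of the Ugt1a cluster share their last exons, so the count of a single member is uncertain. Slc7a12, an amino acid transporter (chromosome 3, 14480697 to 14505830), was at 42.6, 17.8 and 41.8 in con and at 1693 and 2279 in con/STZ, a log2 change of 5.91 ± 0.79 (adjusted p = 0.00292). Cyp4a14, a fatty acid hydroxylase (chromosome 4, 115486200 to 115496142), was at 727, 430 and 1248 against 20610 and 13258, a log2 change of 4.50 ± 0.71 (adjusted p = 0.00425). No overlap between the groups was a condition for being named among the largest changes. The log2 changes without con/STZ 1 and without con/STZ 2 were 8.61 and 8.75 for Ugt1a2. For Slc7a12 they were 6.12 and 5.69, and for Cyp4a14 4.18 and 4.82. In VHLΔPT/STZ 1 and 2, Slc7a12 was at 214 and 1055 and Cyp4a14 at 3077 and 16385.

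Enzymes of 1-carbon and tryptophan metabolism, a protease and a transcription factor were also among the 15 largest rises. Bhmt, which remethylates homocysteine with betaine, was at 46.4, 21.9 and 93.7 in con and at 339.7 and 497 in con/STZ (log2 change 3.14 ± 0.61, adjusted p = 0.00838). Kynu, the kynureninase of tryptophan breakdown, was at 107, 76.3 and 288 against 1171 and 1154 (3.12 ± 0.62, adjusted p = 0.00898). The glutathione transferase Gsta1 rose by 2.53 ± 0.51, from 32.2 to 62.6 in con to 214 and 342, but shares much of its sequence with Gsta2. Pappa is a protease that cleaves IGF-binding proteins and thereby frees IGF. It was at 156, 67.3 and 158 in con and at 875 and 507 in con/STZ, a log2 change of 2.48 ± 0.44 (adjusted p = 0.00622). The IGF-binding protein gene Igfbp5, which is not among the 15, rose as well, from 6651 to 11292 in con to 14991 and 18781 in con/STZ (0.95 ± 0.20, adjusted p = 0.0107). Zbtb16, a transcription factor that glucocorticoids induce, was at 338, 46.8 and 82.2 in con and at 653 and 620 in con/STZ (2.53 ± 0.69, adjusted p = 0.0261). Its con 1 library lay far above the other con libraries, and without con 2 or con 3 it no longer passed (adjusted p = 0.0539 and 0.069). Without con/STZ 2, Bhmt, Kynu, Gsta1, Igfbp5 and Zbtb16 did not pass (adjusted p = 0.0579 to 0.112), and without con/STZ 1 neither Kynu, Pappa nor Zbtb16 did (0.0599 to 0.124).

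Among the largest falls, the drug-metabolizing cytochrome P450 gene Cyp2b10 (chromosome 7, 25897620 to 25926624) was at 478, 276 and 67.7 in con and at 3 and 5.11 in con/STZ, a log2 change of -5.40 ± 0.71 (adjusted p = 0.0028). Gusb, the lysosomal β-glucuronidase, was at 9677, 12103 and 8302 in con and at 1314 and 1133 in con/STZ (-3.02 ± 0.50, adjusted p = 0.00504). The methyltransferase gene Inmt was at 13435, 18105 and 20476 against 2514 and 2468 (-2.78 ± 0.49, adjusted p = 0.00584). In VHLΔPT/STZ 1 and 2, Cyp2b10 was at 31.1 and 16.3, Gusb at 4167 and 898.5 and Inmt at 11879 and 2743. Inmt was at 14682 and 12733 in VHLΔPT 1 and 2. Akr1c18, which inactivates progesterone, was at 786, 774 and 453 in con and at 76.3 and 89.8 in con/STZ (-2.96 ± 0.32, adjusted p = 0.00184). Tmprss9, a membrane serine protease, was at 377, 374 and 286 against 32.1 and 37.9 (-3.26 ± 0.42, adjusted p = 0.00272). Il34, a ligand of the macrophage receptor Csf1r, was at 1667, 1323 and 1020 in con and at 307 and 206 in con/STZ (-2.38 ± 0.51, adjusted p = 0.0114). Il34 did not pass without con/STZ 1 (adjusted p = 0.0506) or without con/STZ 2 (0.084), and the other 5 genes passed in both cases.

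Some of the largest falls did not follow the STZ label in the other libraries. Angptl7, a secreted angiopoietin-like protein, was at 13258, 16286 and 13833 in con and at 162 and 180.1 in con/STZ, a log2 change of -6.39 ± 1.76 (adjusted p = 0.0276). It was at 23350 in VHLΔPT 1 but at 582 in VHLΔPT 2, and at 7519 in VHLΔPT/STZ 1 but at 112 in VHLΔPT/STZ 2. Eno1b, a near copy of the enolase gene Eno1 that may share its reads, was at 1201 to 2753 in con and at 14.6 and 16.8 in con/STZ, while VHLΔPT 1 and 2 had 2047 and 10.3 and VHLΔPT/STZ 1 and 2 had 1102 and 17.7. Agmat, which encodes agmatinase, was at 318 to 589 in con and at 54.8 and 52.1 in con/STZ, while VHLΔPT 1 and 2 had 241 and 46.1 and VHLΔPT/STZ 1 and 2 had 238 and 44.9. So low values of all 3 genes were also seen in an untreated VHLΔPT library and high values in an STZ-treated one. The log2 changes of Eno1b and Agmat were -6.75 ± 2.09 (adjusted p = 0.0416) and -2.92 ± 0.77 (adjusted p = 0.0236). Angptl7 and Eno1b lost their call when any 1 of the 5 libraries was left out (adjusted p = 0.0542 to 0.162), and Agmat lost it without con 3, con/STZ 1 or con/STZ 2 (0.0645 to 0.111). Length corrected, Eno1b and Agmat did not pass (0.0636 and 0.0511).

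**Figure D2:**
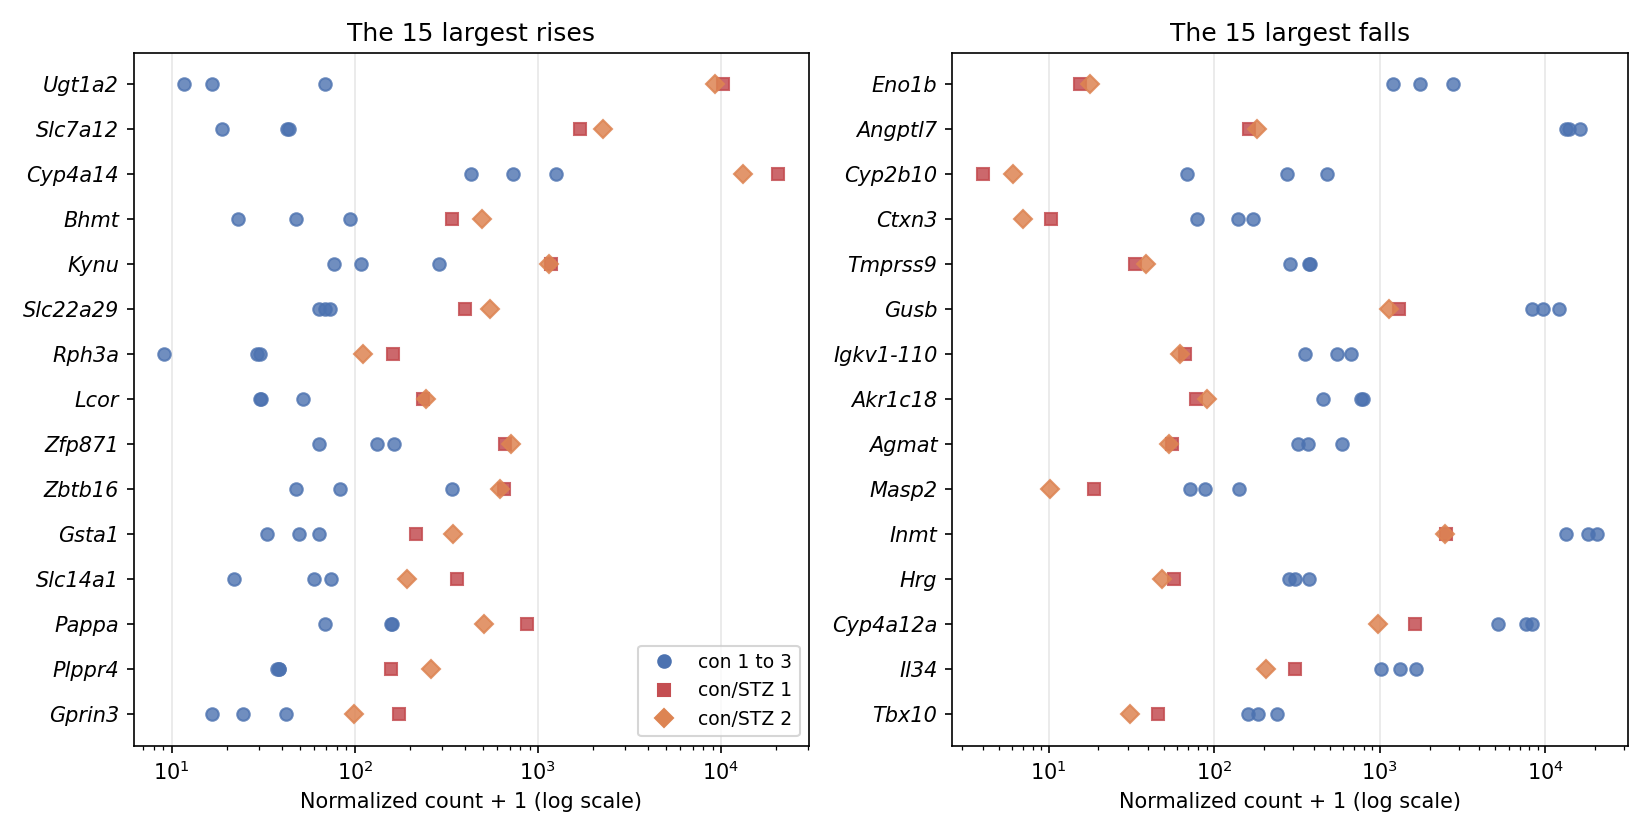
Normalized count + 1 (log axis) of the 15 genes of largest rise and the 15 of largest fall, with a point for each con and con/STZ library. Ugt1a2 lies at 10.7 to 67.7 in con and at 9274 and 10202 in con/STZ, and Angptl7 at 13258 to 16286 in con and at 162 and 180.1 in con/STZ.

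Genes known to be higher in male mouse kidney, many of them dependent on androgen, mostly fell. Of the 14 tested, 11 fell and 2 rose, with a median log2 change of -1.36 against -0.02 for all genes, and 7 fell without con/STZ 1. Slco1a1, an organic anion transporter, was at 9607, 13691 and 9497 in con and at 2055 and 938 in con/STZ, a log2 change of -2.95 ± 0.79 (adjusted p = 0.0251). Acsm3, a medium-chain acyl-CoA synthetase, was at 19526, 24348 and 19009 against 4431 and 2154 (-2.75 ± 0.75, adjusted p = 0.0266). Cyp4a12a, a fatty acid hydroxylase with a near-identical neighbour in Cyp4a12b, was at 7626, 8349 and 5196 against 1625 and 973 (-2.46 ± 0.49, adjusted p = 0.00918). In each of these genes con/STZ 2, the library with Xist, was the lower of the con/STZ libraries, and con/STZ 1 was also below every con library. Kap, the androgen-regulated kidney protein and the most abundant transcript, had the top value of the table in all 3 con libraries and was at 478389 in con/STZ 1 and 110088 in con/STZ 2 (-1.78 ± 0.67, adjusted p = 0.0764). Since normalization gives the same value to the top gene of every library, differences among the con libraries in Kap cannot be seen.

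Of 9 genes known to be higher in female mouse kidney, 5 rose and 2 fell, with a median of 2.78. Slc7a12 and Cyp4a14, given above, belong to them. Prlr, the prolactin receptor, was at 209, 147 and 274 in con and at 991 and 2582 in con/STZ (2.97 ± 0.40, adjusted p = 0.003). Abcc3, an efflux pump for conjugated anions, was at 51.8, 76.3 and 80.1 against 428 and 1267 (3.41 ± 0.65, adjusted p = 0.00753). Both genes were highest in con/STZ 2, and both were also higher in con/STZ 1 than in any con library. Without con/STZ 2, con/STZ 1 alone gave medians of -1.19 for the male-biased and 2.28 for the female-biased genes, and 1 male-biased gene still fell while 3 female-biased genes still rose and 1 fell. Prlr passed without con/STZ 2 (adjusted p = 0.0266), and Slco1a1, Acsm3, Cyp4a12a and Abcc3 did not (0.0659 to 0.165). Without con/STZ 1, Slco1a1 and Acsm3 did not pass (0.0714 and 0.0746), and Kap did (0.0441). Both also lost their calls without con 2 or con 3, and Acsm3 without con 1 (0.0512 to 0.0649). Length corrected, 9 male-biased genes fell and 1 rose, and 5 female-biased genes rose and 2 fell. The part of the Xist-containing pool in these changes was not tested beyond leaving it out.

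**Figure D3:**
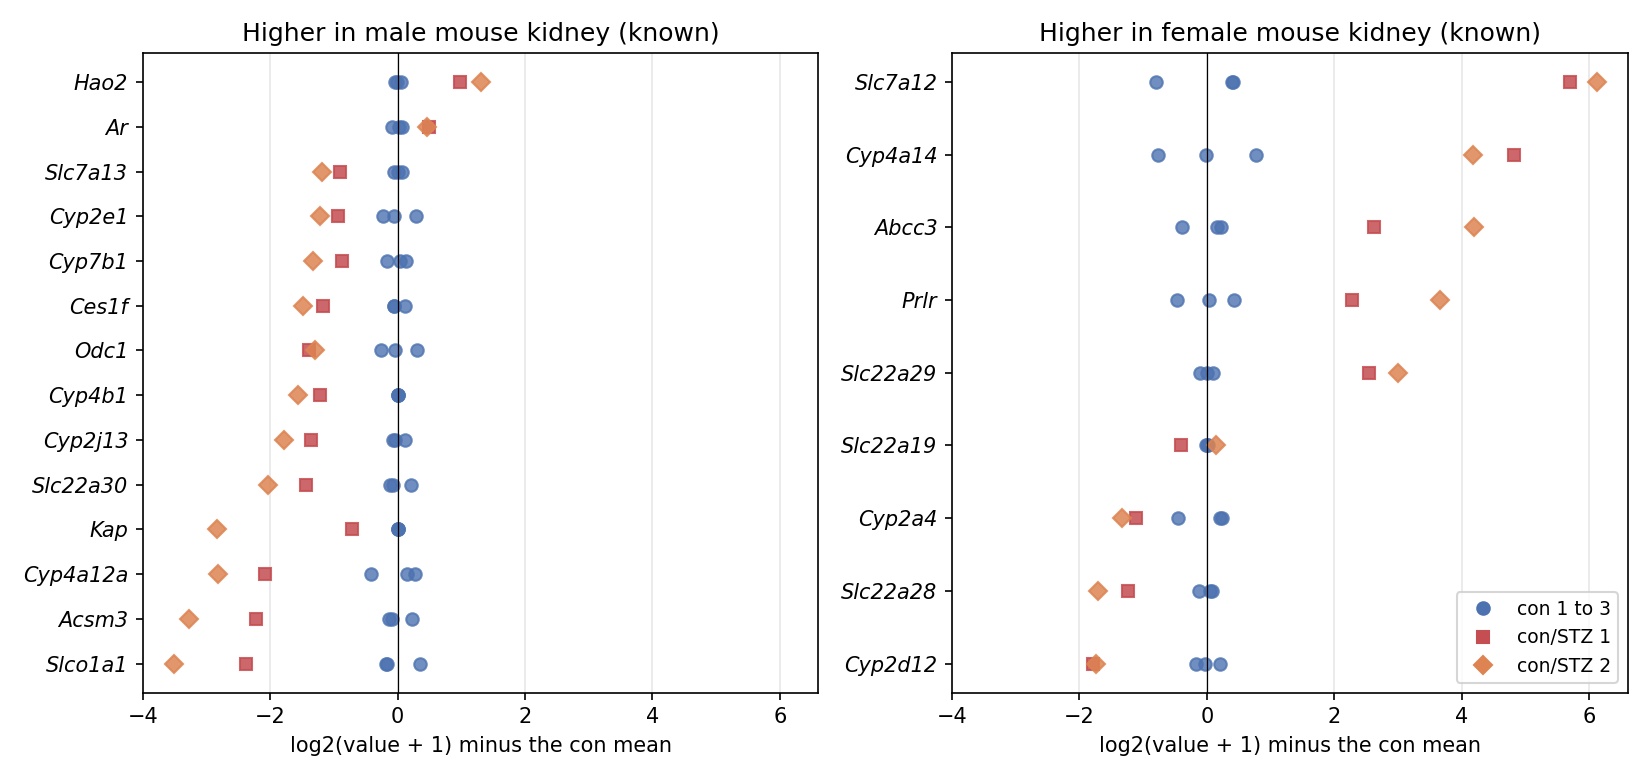
Log2(normalized count + 1) of each library minus the con mean, for 14 genes known as male-biased and 9 known as female-biased. Both con/STZ libraries lie below the con mean for most male-biased genes, and the medians of the log2 changes are -1.36 and 2.78.

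Several transporters of glucose and fructose were higher in con/STZ. Of 17 tested, 9 rose and none fell, with a median log2 change of 0.50. Slc2a2, which encodes the basolateral transporter GLUT2 of the proximal tubule, was at 3670, 3841 and 3190 in con and at 6617 and 6126 in con/STZ (0.84 ± 0.13, adjusted p = 0.0041). Slc5a1, which encodes SGLT1 of the late proximal tubule, was at 2319, 1780 and 1977 against 3189 and 3019 (0.62 ± 0.16, adjusted p = 0.0194). Slc5a2, which encodes SGLT2, was at 9465, 8553 and 7361 against 10164 and 12544 (0.42 ± 0.13, adjusted p = 0.041). The groups did not overlap in any of the 3 genes, as in 58% of all genes tested, and the gap in Slc5a2 was narrow. Slc2a1, which encodes GLUT1, was at 976 to 1140 in con and at 1504 and 1400 in con/STZ (0.48 ± 0.12, adjusted p = 0.0225). Slc5a9, which encodes the mannose and glucose cotransporter SGLT4, rose by 0.88 ± 0.18 (adjusted p = 0.0109). Length corrected, 8 of the 17 rose and none fell, and without con/STZ 1, 2 rose. Only Slc2a2 of the 17 passed without con/STZ 2 (adjusted p = 0.0317), where Slc5a1, Slc5a2, Slc2a1 and Slc5a9 were at 0.0815 to 0.268, and without con/STZ 1 Slc5a1, Slc5a2 and Slc2a1 did not pass (0.0611 to 0.136). Slc5a1, Slc5a2 and Slc2a1 also did not pass without con 2 (0.0523 to 0.0777), nor Slc5a2 without con 3 (0.097).

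Enzymes of glucose synthesis and breakdown moved less. Pck1, the rate-limiting enzyme of gluconeogenesis, was at 179848, 85143 and 94054 in con and at 137282 in both con/STZ libraries (0.28 ± 0.31, adjusted p = 0.513). G6pc, the glucose-6-phosphatase that releases glucose, was at 32884, 14362 and 12766 against 19351 and 11529 (-0.29 ± 0.42, adjusted p = 0.637). The groups overlapped in both genes, with con 1 the highest. Of 19 gluconeogenesis genes tested, 3 rose and 3 fell, near the shares of all genes that rose (14.1%) and fell (14.1%). The lactate transporter gene Slc5a12 of the proximal tubule rose, from 5282, 6448 and 4368 in con to 14270 and 11250 in con/STZ (1.26 ± 0.22, adjusted p = 0.0058). Of 21 glycolysis genes, 4 rose, not far from the 14.1% of all genes, and none fell, with a median of 0.23. Hk1, a hexokinase, was at 2805, 2850 and 2850 in con and at 4641 and 4679 in con/STZ (0.72 ± 0.09, adjusted p = 0.00228). Pkm, a pyruvate kinase, was at 4820 to 6126 against 10612 and 9913 (0.95 ± 0.18, adjusted p = 0.00725), and Pdk1, which holds pyruvate out of the mitochondrion, was at 572 to 915 against 1752 and 1471 (1.10 ± 0.25, adjusted p = 0.0141). Hk1 passed without either con/STZ library, Slc5a12 and Pkm without con/STZ 2 but not without con/STZ 1 (adjusted p = 0.0554 and 0.0598), and Pdk1 in neither case (0.0584 and 0.102). Length corrected, 8 glycolysis genes rose and none fell, and 1 and 2 rose without con/STZ 1 and without con/STZ 2. Of the gluconeogenesis genes none fell in these cases, and none and 2 rose.

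Fatty acid and ketone genes went both ways, where 14.1% of all genes rose and 14.1% fell. Of 39 genes of fatty acid oxidation and PPARα targets, 10 rose and 6, a share near that of all genes, fell, with a median of 0.08. Without con/STZ 1, 2 of them rose and 4 fell, and without con/STZ 2, 2 rose and 1 fell. Cyp4a10, like Cyp4a14 a PPARα target, was at 4603, 2732 and 4997 in con and at 22908 and 16385 in con/STZ (log2 change 2.28 ± 0.48, adjusted p = 0.011). Cd36, a fatty acid receptor, moved the other way, from 14747, 20610 and 18781 to 7397 and 4274 (-1.67 ± 0.44, adjusted p = 0.0236). Acat1, which acts in ketone synthesis and use, fell from 28751 to 31236 in con to 17332 and 14655 (-0.91 ± 0.15, adjusted p = 0.00532). In each of these genes the groups did not overlap, as in 58% of all genes tested. Of 30 genes of sterol and fatty acid synthesis, 6 rose and 2 fell (3 and 1 without con/STZ 1, 2 and 1 without con/STZ 2), and the elongase Elovl6 rose by 1.28 ± 0.25 (adjusted p = 0.00809). Without con/STZ 2, Cyp4a10, Cd36, Acat1 and Elovl6 did not pass (adjusted p = 0.0508 to 0.163). Without con/STZ 1, Cyp4a10 and Cd36 did not pass (0.0838 and 0.0596). Cd36 also lost its call without con 2 or con 3 (0.0609 and 0.0574).

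Genes of the segments after the proximal tubule were mostly higher in con/STZ. In bulk RNA, more cells of a type cannot be told apart from more RNA per cell. Of 21 genes of the distal convoluted and connecting tubule, 15 rose and none fell (median 0.71), and 10 rose without con/STZ 2, 9 without con/STZ 1 and 14 when length corrected. Slc8a1, the sodium-calcium exchanger of calcium reabsorption (chromosome 17, 81373105 to 81738377), was at 311, 287 and 332 in con and at 1387 and 1599 in con/STZ, a log2 change of 2.26 ± 0.13 (length corrected 1.71). Its adjusted p of 0.00047, shared with Slc5a3, was the lowest of all genes tested. Calb1, the cytosolic calcium carrier calbindin, was at 6948, 6948 and 11692 against 30566 and 27373 (1.81 ± 0.27, adjusted p = 0.0037). Trpv5, the apical calcium channel, was at 330.1, 286 and 464 against 840 and 1010 (1.38 ± 0.19, adjusted p = 0.00306). Trpm6, a magnesium channel, was at 320.4, 272 and 457 against 833 and 999 (1.41 ± 0.22, adjusted p = 0.00404). In these 4 genes of calcium and magnesium transport the con/STZ libraries lay above every con library. The groups did not overlap in 58% of all genes tested. Without con/STZ 1 and without con/STZ 2 the log2 changes were 2.36 and 2.16 for Slc8a1 and 1.73 and 1.89 for Calb1. For Trpv5 they were 1.52 and 1.25, and for Trpm6 1.55 and 1.28. Klhl3, whose product directs the WNK kinases to degradation, was at 268, 201 and 122 in con and at 550.3 and 872 in con/STZ (1.88 ± 0.31, adjusted p = 0.00489). Slc12a3, the thiazide-sensitive cotransporter, rose by 1.03 ± 0.14 from 8721 to 9254 in con to 16385 and 20983. It is outside the rule for named genes and was chosen after its values were seen, as was Scnn1a below. Pvalb, another marker of the segment, was not higher, at 1587, 1439 and 2193 in con and at 1467 and 1182 in con/STZ.

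Of 18 genes of the thick ascending limb and macula densa, 10 rose and 1 fell (median 0.65), and 5 rose and none fell without con/STZ 1 as well as without con/STZ 2. Slc12a1, the cotransporter NKCC2, was at 9710, 11999 and 10789 in con and at 37387 and 32164 in con/STZ (1.68 ± 0.13, adjusted p = 0.000581). Kcnj1, the potassium channel ROMK that recycles potassium for it, was at 4065, 3868 and 4749 against 8763 and 8972 (1.07 ± 0.12, adjusted p = 0.00215). Ptger3, a prostaglandin E2 receptor, was at 825, 867 and 1038 against 2666 and 2245 (1.43 ± 0.13, adjusted p = 0.00113). These 3 genes had no overlap, like 58% of all genes tested. Without con/STZ 1 and without con/STZ 2 the log2 changes were 1.58 and 1.79 for Slc12a1 and 1.09 and 1.06 for Kcnj1. For Ptger3 they were 1.31 and 1.56. Umod, the uromodulin gene and the segment's most abundant marker, was at 52812 to 59262 in con and at 80665 and 72919 in con/STZ (0.43 ± 0.19, adjusted p = 0.116). Nos1, the nitric oxide synthase of the macula densa, was low, at 12.1, 17.8 and 12.4 in con and at 40.9 and 35 in con/STZ (1.38 ± 0.32, adjusted p = 0.0152). It did not pass without con/STZ 1 (adjusted p = 0.103) or con/STZ 2 (0.0678). Markers of the medulla, which holds much of this segment, summed to 65507 to 75643 in con and to 122533 and 110736 in con/STZ, of which Umod and Slc12a1 made up most. Of 9 tested, 2 rose and none fell, and the inner medullary urea transporter gene Slc14a2 was at 269 to 457 in con but 460.3 and 918 in con/STZ (adjusted p = 0.162). The part of the depth of dissection in the rises was not tested.

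In the collecting duct, 6 of 16 principal cell genes and 8 of 18 intercalated cell genes rose and none fell (medians 0.59 and 0.35). The groups overlapped in the intercalated cell marker Slc26a4, at 1519 to 1765 in con and at 1642 and 1732 in con/STZ. Scnn1a and Scnn1g, subunits of the epithelial sodium channel, were at 2778 to 3458 and 753 to 1086 in con, at 4758 and 1516 in con/STZ 1 and at 4526 and 1410 in con/STZ 2. Their log2 changes were 0.61 ± 0.12 (adjusted p = 0.00865) and 0.66 ± 0.14 (adjusted p = 0.0119). Slc26a7, a chloride-bicarbonate exchanger, was at 43.8, 57.7 and 48.4 against 139 and 97.6 (1.21 ± 0.23, adjusted p = 0.00778). The receptor gene Adgrf5, listed here with intercalated cells, was at 1381 to 1595 against 2798 and 2835 (0.90 ± 0.09, adjusted p = 0.00159). The cells that made its RNA cannot be told in bulk RNA. Without con/STZ 2, 1 principal and 2 intercalated cell genes rose, and without con/STZ 1, none and 4. Scnn1g did not pass without either con/STZ library (adjusted p = 0.0853 and 0.0582), and Scnn1a and Slc26a7 did not pass without con/STZ 1 (0.068 and 0.0739).

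In the proximal tubule, sodium, bicarbonate and phosphate transport was mixed, with 5 of 22 genes higher and 3 lower (median 0.04), 3 and 2 without con/STZ 1 and 2 and 2 without con/STZ 2. Of all genes, 14.1% rose and 14.1% fell. Slc4a4, the basolateral sodium-bicarbonate cotransporter, was at 14788, 16462 and 13492 in con and at 31600 and 32884 in con/STZ (1.12 ± 0.12, adjusted p = 0.00171). The groups did not overlap in it, as in 58% of all genes tested. Of 26 amino acid and peptide transporters, 10 rose and 2 fell (median 0.43), and 5 and 3 rose without con/STZ 1 and without con/STZ 2. Slc7a8, a basolateral exchanger of neutral amino acids, was at 1911, 1927 and 1723 against 4262 and 6470, a 2.84-fold rise (adjusted p = 0.00306), and Slc38a2, an amino acid transporter induced by hypertonicity and amino acid lack, was at 1079 to 1407 against 3213 and 2757 (1.22 ± 0.21, adjusted p = 0.00532). Of 23 organic ion transporters, 8 fell and 5 rose, but without con/STZ 1 only 2 fell and 3 rose, and without con/STZ 2 only 1 fell and 1 rose. Slc22a12, the urate exchanger URAT1, was at 26408, 28005 and 27373 in con and at 11949 and 12339 in con/STZ (-1.17 ± 0.17, adjusted p = 0.00313). Slc22a7, the anion transporter OAT2, was at 6183, 6664 and 6249 against 1062 and 2272 (-2.03 ± 0.49, adjusted p = 0.0168), and the related Slc22a30, a male-biased gene, at 2901 to 3651 against 1167 and 773 (-1.74 ± 0.31, adjusted p = 0.00589). Of these genes only Slc22a7 lost its call without con/STZ 1 (adjusted p = 0.133) and only Slc22a30 without con/STZ 2 (0.0549).

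Detoxifying enzymes passed at a share near that of all genes, of which 14.1% rose and 14.1% fell. Of 45 cytochrome P450 genes tested, 6 rose and 9 fell, and of 40 glucuronosyl-, sulfo- and glutathione transferases, 8 rose and 3 fell. Without con/STZ 1 the P450 counts were 2 and 6 and without con/STZ 2 they were 2 and 1, and of the transferases 4 rose in either case. Beside Ugt1a2 and Gsta1, Ugt2b34 rose from 429 to 516 in con to 795 and 1332 in con/STZ (1.15 ± 0.20, adjusted p = 0.00603). Ugt2b38, a relative in the same cluster, was lower, at 20711, 29379 and 29067 in con and at 11377 and 7821 in con/STZ (-1.47 ± 0.30, adjusted p = 0.00978). Cbs, which commits homocysteine to cysteine, was at 7797 to 8110 in con and at 4681 and 4333 in con/STZ (-0.82 ± 0.13, adjusted p = 0.00458), so it fell where Bhmt, the enzyme of the alternative route, rose. Nqo1, a target of the oxidant sensor NRF2, rose by 0.71 ± 0.20 (adjusted p = 0.0297). Of 29 NADPH oxidase, antioxidant and NRF2 target genes, 2 rose and 5 fell (1 and 1 without either con/STZ library), and the other gene that rose was Nox4, which encodes an oxidase that makes hydrogen peroxide. Without con/STZ 2, Ugt2b38 and Nqo1 did not pass (adjusted p = 0.0813 and 0.075), and Nqo1 did not without con/STZ 1 (0.187), con 1 (0.0528) or con 2 (0.0784).

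Of 10 genes of osmotic adaptation, 6 rose and none fell (median 1.01, length corrected 0.75), and 3 rose without con/STZ 1 as well as without con/STZ 2. Slc5a3, the myo-inositol transporter that fills cells with osmolyte (chromosome 16, 92058322 to 92087473), was at 1816, 1992 and 1909 in con and at 6211 and 5450 in con/STZ, a log2 change of 1.61 ± 0.10 (adjusted p = 0.00047). Nfat5, the transcription factor of the osmotic response, was at 696, 967 and 813 against 1986 and 1857 (1.23 ± 0.13, adjusted p = 0.00171, length corrected 0.68). Both genes had no overlap, like 58% of all genes tested. Without con/STZ 1 and without con/STZ 2 the log2 changes were 1.52 and 1.70 for Slc5a3 and 1.18 and 1.28 for Nfat5. Slc6a12, the betaine transporter, was at 54.1, 75.2 and 148 against 478 and 275 (2.09 ± 0.56, adjusted p = 0.0258). It did not pass without con/STZ 1 (adjusted p = 0.167), con/STZ 2 (0.0698), con 1 (0.0623) or con 2 (0.0624). Akr1b3, the aldose reductase that makes sorbitol, was at 1013, 1451 and 2372 in con and at 729 and 1682 in con/STZ, so the groups overlapped (-0.45 ± 0.47, adjusted p = 0.49).

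In the glomerulus, 8 of 18 podocyte genes rose and none fell (median 0.37), and 3 rose when length corrected, 3 without con/STZ 1 and 4 without con/STZ 2. Nphs1, which encodes the slit diaphragm protein nephrin, was not among them, at 384 to 506 in con and at 533 and 661 in con/STZ (0.40 ± 0.15, adjusted p = 0.0717). Cd2ap, which anchors nephrin to actin, was at 1534 to 1671 against 2733 and 2699 (0.78 ± 0.10, adjusted p = 0.00234), but its length-corrected change was 0.28 (adjusted p = 0.164). Npnt, a ligand of integrins in the glomerular basement membrane, was at 3224, 2325 and 2500 against 7181 and 7155 (1.43 ± 0.22, adjusted p = 0.00404). Of 34 basement membrane and integrin genes, 18 rose and none fell (median 0.51), 13 when length corrected (median 0.31), 13 without con/STZ 1 and 11 without con/STZ 2. Itgav, the αv integrin subunit, was at 1895, 1887 and 1932 in con and at 4138 and 3772 in con/STZ (1.05 ± 0.10, adjusted p = 0.00126), and Itga1, a collagen receptor subunit, at 818 to 927 against 1820 and 2083 (1.15 ± 0.11, adjusted p = 0.00137). Both lay apart from con, where the groups did not overlap in 58% of all genes tested. Without con/STZ 1 and without con/STZ 2 the log2 changes were 0.99 and 1.12 for Itgav and 1.24 and 1.05 for Itga1. Length corrected, the changes of Itgav and Itga1 were 0.71 and 0.59. Of 25 genes of fibroblasts, mesangium and smooth muscle, 1 rose and none fell (median -0.03), the riser being the growth factor receptor gene Pdgfra (0.59 ± 0.10, adjusted p = 0.00494, length corrected 0.0622). The fibrillar collagen gene Col1a1 was at 340 to 539.9 in con and at 357 and 459.9 in con/STZ.

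Of 24 genes of tubular injury and repair, 1 rose and 1 fell. Spp1, which encodes osteopontin, was at 13531, 9351 and 19651 in con and at 50342 and 47697 in con/STZ (1.85 ± 0.56, adjusted p = 0.0369), and lost its call without con/STZ 1 (adjusted p = 0.153), con/STZ 2 (0.138), con 1 (0.0708) or con 2 (0.0953). Havcr1, which encodes the injury marker KIM-1, was at 901, 815 and 1003 in con and at 233 and 774 in con/STZ (-1.08 ± 0.60, adjusted p = 0.199). Lcn2, which encodes NGAL, was at 141, 48.8 and 201 against 192 and 148 (0.59 ± 1.10, adjusted p = 0.71). The groups overlapped in Lcn2, and both Havcr1 values lay below con. Of 14 genes of the renin-angiotensin system and its peptidases, 6 rose and 1 fell (1 and 1 without con/STZ 1, 2 and 1 without con/STZ 2). Ren1, the renin gene, was at 2704, 1664 and 2726 against 2675 and 2181 (0.07 ± 0.20, adjusted p = 0.824). Mme, the peptidase neprilysin, was at 1977 to 2199 against 4091 and 5469 (1.16 ± 0.16, adjusted p = 0.00305), and Mas1, the receptor of angiotensin 1-7, was at 56.2, 94.5 and 86.9 against 21.7 and 17.8 (-1.92 ± 0.27, adjusted p = 0.00301).

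Immune cell genes were lower in con/STZ. Of 12 genes of MHC class II and lymphocytes, 8 fell and none rose (median -1.06), and 8 fell when length corrected, 6 without con/STZ 2 and 3 without con/STZ 1. Jchain, which joins secreted antibodies, was at 1370, 1361 and 1587 in con and at 343 and 366 in con/STZ (-2.02 ± 0.20, adjusted p = 0.00137). H2-Eb1, an MHC class II chain, was at 2158, 2232 and 2856 against 761 and 1274 (-1.28 ± 0.21, adjusted p = 0.00483). Igkv1-110, an antibody light-chain segment with close relatives, fell by 2.97 on the log2 scale, from 351 to 670.2 in con to 65.9 and 61. Of 22 macrophage and other myeloid genes, 11 fell and none rose (median -0.85, length corrected -0.60), and 3 fell without con/STZ 2 and 2 without con/STZ 1. Fcer1g, a signalling chain of Fc receptors, was at 128, 139 and 161 in con and at 65.9 and 64 in con/STZ (-1.12 ± 0.18, adjusted p = 0.00425), and C1qa, a complement subunit made by macrophages, was at 559 to 882 against 291 and 371 (-0.99 ± 0.24, adjusted p = 0.0173). C1qa did not pass without con/STZ 1 (adjusted p = 0.125) or con/STZ 2 (0.0563), nor when length corrected (0.0671). The myeloid genes summed to 6493 to 7726 in con and to 4020 and 4351 in con/STZ. Their median exon length was 1831.5 bases, near that of the class of shortest genes. Fewer cells and less RNA per cell cannot be told apart here either.

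Among signalling genes, 13 of 36 of the insulin, IGF and mTOR pathways rose and 1 fell, against 6 and 3 when length corrected, 5 and none without con/STZ 1 and 4 and none without con/STZ 2. Irs1, the adaptor of the insulin receptor, was at 243, 226 and 228 in con and at 438 and 502 in con/STZ (1.01 ± 0.12, adjusted p = 0.00228), with a length-corrected change of 0.74 (adjusted p = 0.00962). Of 26 HIF genes, regulators and targets, 4 rose and 2 fell, near or below the 14.1% of all genes called in each direction. Their median log2 change was 0.06, and it was 0.04 without con/STZ 1 and 0.10 without con/STZ 2. Hif1a, which encodes the regulated subunit, rose by 0.87 ± 0.12 and passed without either con/STZ library, and Pdk1 and Slc2a1, given above, were among the others that rose. Car9, a carbonic anhydrase induced by HIF, was lower, at 665, 724 and 530.1 in con and at 158 and 147 in con/STZ (-2.05 ± 0.28, adjusted p = 0.003), while Vegfa, another target, was at 3206 to 3972 against 4061 and 3732 (0.10 ± 0.11, adjusted p = 0.518). Car9 passed without either con/STZ library. Of 30 genes of TGF-β and BMP signalling, 8 rose and 5 fell, but without con/STZ 1 only 1 rose and none fell, and without con/STZ 2 only 2 rose and 1 fell. Length corrected, 3 of the 30 rose and 5 fell. Id1, a BMP target, was at 696, 1472 and 1457 against 333 and 534 (-1.44 ± 0.32, adjusted p = 0.0133). Id1 did not pass without con/STZ 1 (adjusted p = 0.109).

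Large gene sets of cell maintenance differed in gene length and in direction. Chromatin regulators, with a median exon length of 9596 bases, had 37 of 59 genes higher and 1 lower (median 0.47), and 12 higher and 2 lower when length corrected (median 0.18). Without con/STZ 1 as well as without con/STZ 2, 13 were higher. Kmt2a, a histone H3 lysine 4 methyltransferase, was at 579, 673 and 433 in con and at 1298 and 1275 in con/STZ (1.22 ± 0.20, adjusted p = 0.00471), and its length-corrected change was 0.70 (adjusted p = 0.0137). Of 37 proteasome subunits, 21 fell and none rose (median -0.42), and 10 fell when length corrected (median -0.24), 12 without con/STZ 1 and 4 without con/STZ 2. Of 76 mitochondrial ribosomal proteins, 46 fell, against 23 lower and 1 higher when length corrected (median -0.25), and 7 and 10 fell without con/STZ 1 and without con/STZ 2. Psmd4, a ubiquitin receptor of the proteasome, was at 3264, 3033 and 3334 against 2094 and 2122 (-0.61 ± 0.08, adjusted p = 0.00296). Cytosolic ribosomal proteins, with a median exon length of 1770 bases, had 8 of 83 genes lower and none higher (median -0.24), but 4 higher and none lower when length corrected (median 0.01). Respiratory chain and ATP synthase subunits had 4 of 85 lower and none higher (median -0.18), and 8 higher and none lower when length corrected (median 0.13). The falls of the cytosolic ribosome and of the respiratory chain lie below the share of all genes that fell, 14.1%. Without con/STZ 2 none of either set fell, and without con/STZ 1, 1 of each did.

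Finally, the con/STZ libraries differed from each other in a few genes. Beside Xist, the growth factor gene Igf2 was at 44.8 in con/STZ 1 and at 2033 in con/STZ 2, with 38.9 to 51.8 in con. Hdc, the histidine decarboxylase, was at 119.7 in con/STZ 1, 1386 in con/STZ 2 and 58.4 to 78.1 in con, and the protease inhibitor gene Serpina1d was at 562, 56.2 and 1032 to 1137. So con/STZ 2 was the library apart from the other 4 in these genes. Clock genes differed among libraries of the same group. Nr1d1, a clock repressor, was at 559, 1759 and 1142 in con and at 238 and 1255 in con/STZ, and Arntl, which it represses, at 204, 35 and 47.3 against 474 and 102. Con/STZ 1 and con 1 were the highest libraries in Arntl and the lowest in Nr1d1. Neither passed (adjusted p = 0.306 and 0.217), and without con/STZ 2 Nr1d1 was lower in con/STZ 1 (adjusted p = 0.0469). They are outside the rule for named genes and were chosen after their values were seen. Of 22 clock genes 1, Clock itself, rose (0.96 ± 0.13, adjusted p = 0.00292, length corrected 0.52).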

How the data were processed

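RNA of kidney cortices pooled from 2 mice per library was sequenced after stranded poly(A) selection. The deposited table holds 1 signal value per gene and library: gene counts that the authors had quantile normalized, as the column names say, which gives the libraries 1 distribution and nearly equal totals. The tool for this is not given in the sources used here. The submitters' processing notes name FastQC 0.11, MultiQC 1.4, Trim Galore 0.4, STAR 2.5.2b, featureCounts 1.5.2, StringTie 1.3.3b, DESeq2 1.26.0 and R 3.6.3, and the build GRCm38. How reads that match several genes were counted is not given there. The authors' fold changes and adjusted p-values in the table were not used. In all, 24 gene names turned into dates were restored, and 18616 of 18657 gene IDs were found in GENCODE M21, which gave coordinates and merged exon lengths (known for 14420 tested genes).

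Values were tested as log2(value + 1) with limma 3.58.1 in R 4.3.3 for genes with a mean of at least 10, with 4 group means over all 9 libraries, an empirical Bayes trend, and a two-sided test adjusted by Benjamini-Hochberg over all tested genes. The code was tested on simulated data. The length correction removed, per library, a loess trend (span 0.5) of each gene's deviation from its mean on log10 exon length. Gene lists and members were chosen with earlier results of these data known, and p-values were not adjusted within lists. Named genes were the 15 largest rises and falls that passed, with a mean of at least 50, no overlap and con/STZ libraries within 2-fold of each other, without predicted gene models; up to 4 passing members per list; a fixed set of kidney genes; and the 10 genes that differed most between the con/STZ libraries. Some genes that meet this rule are not reported here. Alternatives were another pseudocount, filters, rescaling, no trend, library weights, only 5 libraries, a replicate block, length correction, each library left out, a stricter threshold, and no X and Y genes. Tables were made with Python 3.11.15, numpy 2.4.6 and pandas 2.3.3, and figures with matplotlib 3.10.9.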

Additional observations from a re-analysis of the deposited data

Results flagged for a closer look

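The change with STZ in VHLΔPT mice, minus that in con mice, was tested as an interaction in the same limma fit over the 9 libraries, with 2 libraries in each VHLΔPT group. The named genes given here passed an adjusted p of 0.05. In all of them but Mrps7 the difference was negative on the log2 scale, and all of those genes rose in con/STZ. The differences were -3.33 for the zinc finger gene Zfp871, -3.00 for the nuclear receptor corepressor Lcor, -2.19 for the nuclear RNA Malat1, -2.02 for the calcium exchanger Slc8a1 and -1.73 for the integrin subunit Itgb8. Among chromatin regulators they were -1.58 for Kmt2a, -1.42 for Kmt2c and -1.30 for Ash1l. Among osmotic genes they were -1.47 for Nfat5 and -1.26 for Slc5a3, and among ion transporters -1.42 for Slc12a1 and -1.12 for Slc4a4. The O-GlcNAc transferase gene Ogt gave -1.26 and the hexosamine enzyme gene Gfpt1 -0.76. Further values were -1.09 for Itga1, -0.81 for Itgav, -1.04 for Irs1, -1.02 for Ptprb, -0.94 for Nox4, -0.88 for the clathrin heavy chain gene Cltc, -0.88 for Pdgfra, -0.85 for Adgrf5 and -0.79 for Cd2ap. Mrps7, a mitochondrial ribosomal protein gene that fell in con/STZ, gave 0.75. These differences compare changes that had been chosen as large in con, and their dependence on single libraries was not tested. Zfp871 was at 62.8 to 162 in con, 661 and 711 in con/STZ, 744 and 531 in VHLΔPT and 560 and 266 in VHLΔPT/STZ. For Slc8a1 the values were 287 to 332, 1387 and 1599, 841 and 666, and 851 and 925 in the same order. In both genes the untreated VHLΔPT libraries already lay above every con library, and this baseline enters the difference. The median merged exon length of these 24 genes was 10779.5 bases. The trend with length described in the report, negative in con and positive in con/STZ and VHLΔPT, with 0.18 and -0.06 in VHLΔPT/STZ, has the same sign pattern. With the length correction, an alternative chosen after seeing the data, none of the 24 differences passed (adjusted p = 0.104 to 0.704) and all 24 kept their sign. Over all genes, 248 differences passed as deposited and 2 when length corrected.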

How the results depend on the processing

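Of the 4082 genes that passed, 1374 did so at an adjusted p of 0.01. With 1 library left out, between 1241 and 3747 genes passed, of which 661 to 1879 were higher and 580 to 1868 lower, and between 1073 and 2295 also changed more than 1.5-fold. The lowest counts came without con/STZ 1 or con/STZ 2, where the lone con/STZ library is assumed to vary like the other groups. The length correction left 1247 higher genes and 1443 past 1.5-fold, and together with leaving out con/STZ 2 it left 412 genes, 189 higher and 223 lower, 376 of them past 1.5-fold. In every setting without a length correction all of the 4082 genes that could be tested kept their direction (at least 3828), and with it 3976 of 4076 did. The genes were chosen on the same values, so their kept direction is no independent support. Of the named genes only Atp5g2, an ATP synthase subunit, changed sign after passing, to 0.032 with the length correction and without con/STZ 2. Of 206 named genes, 96 lost their call without con/STZ 1, 97 without con/STZ 2, 40 with the length correction and 30 with a replicate block. The replicate numbers of the labels are shared by only 2 pairs and nothing says that they pair the mice. Deviations from the group means correlated by 0.144 for con 1 with con/STZ 1 and 0.0616 for con 2 with con/STZ 2. With 2 con/STZ libraries the unmatched correlations must be the same with the sign reversed (-0.144 and -0.0616). The measure therefore cannot decide on pairing. A replicate block left 3001 genes, 1534 higher and 1467 lower, 1857 past 1.5-fold. The number of passing genes was 3461 to 4729 with another pseudocount, filter, rescaling, trend, weights or only the 5 libraries. Depth is unknown, and 2 con/STZ pools limit every result.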
